A study of Saccharomyces cerevisiae with 12 samples.

Results

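The 10 amino acid permeases *GAP1*, *AGP1*, *GNP1*, *BAP2*, *BAP3*, *TAT1*, *TAT2*, *HIP1*, *CAN1* and *LYP1* were examined in wild-type *S. cerevisiae* during mild heat shock. They were chosen by gene symbol, and all 10 had a probe with values on the cDNA microarray, which measured 6019 features (genes and unnamed open reading frames). The strain was JN54, of mating type a, which carries mutant alleles of *his3*, *leu2*, *ura3*, *trp1* and *lys2* in heat-shocked and control cells alike. Cells grown to a logarithmic phase at 30°C in YPD, a rich medium of yeast extract, polypeptone and glucose, were transferred to 43°C for 30 or 60 min, and control cells were kept at 30°C for the same time. Cy5 marked the cDNA of heat-shocked cells and Cy3 that of control cells, and 3 experiments were hybridized at each time, 6 arrays in all. A value above 0 is a higher mRNA signal after heat shock, as a log2 ratio of 43°C over 30°C, and a log2 ratio of 1 is a change of 2-fold. The heat shock genes *HSP12*, *SSA4* and *HSP26* lay above 0 in all 6 arrays, with log2 ratios from 1.74 to 5.58. No experiment with exchanged dyes is described, and a gene's dye bias and its response to heat cannot be told apart.

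These permeases are membrane proteins that carry amino acids into the cell with protons. In yeast their genes answer to what the medium offers. Extracellular amino acids are detected by the SPS sensor of Ssy1, Ptr3 and Ssy5, which releases the transcription factors Stp1 and Stp2, and these activate *AGP1*, *GNP1*, *BAP2*, *BAP3*, *TAT1*, *TAT2* and the peptide transporter gene *PTR2*. *GAP1* is under nitrogen catabolite repression, which keeps the GATA factors Gln3 and Gat1 from acting while good nitrogen sources are present. *HIP1*, *CAN1* and *LYP1* encode permeases narrow in substrate, for histidine, arginine and lysine. Newly made permeases leave the endoplasmic reticulum with the help of Shr3, and at the plasma membrane they are ubiquitinated by Rsp5 and sorted to the vacuole. A strain that cannot make histidine, leucine, tryptophan or lysine takes up these amino acids from the medium through permeases of this family.

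The 10 genes did not move as one group. *AGP1* and *GAP1*, the permeases of broadest substrate range, were higher after 60 min of heat shock. *BAP3*, *TAT1* and *GNP1* were lower at both times. The remaining 5, *BAP2*, *TAT2*, *HIP1*, *CAN1* and *LYP1*, did not pass the test at either time. RNA came from whole cultures, in which a change in every cell and a change in some cells cannot be told apart. By limma with a Benjamini-Hochberg adjusted p under 0.05 over all 6019 features, 1 member rose and 3 fell at 30 min, where 10.7% of all features rose and 15.9% fell. At 60 min 2 members rose and 3 fell, against 15.6% and 18.2% of all features. The median log2 ratio of the 10 members was -0.43 at 30 min and -0.21 at 60 min, against -0.01 and 0.01 for all features. By the rule of the study's methods, over 2-fold in at least 2 of 3 experiments, 0 members were up and 3 down at 30 min, and 2 were up and 3 down at 60 min. The shares of all features by this rule were 4.42% up and 10.2% down at 30 min, and 6.89% up and 10.5% down at 60 min. With 10 genes, these counts describe the members and set them beside the whole array.

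**Figure D1:**
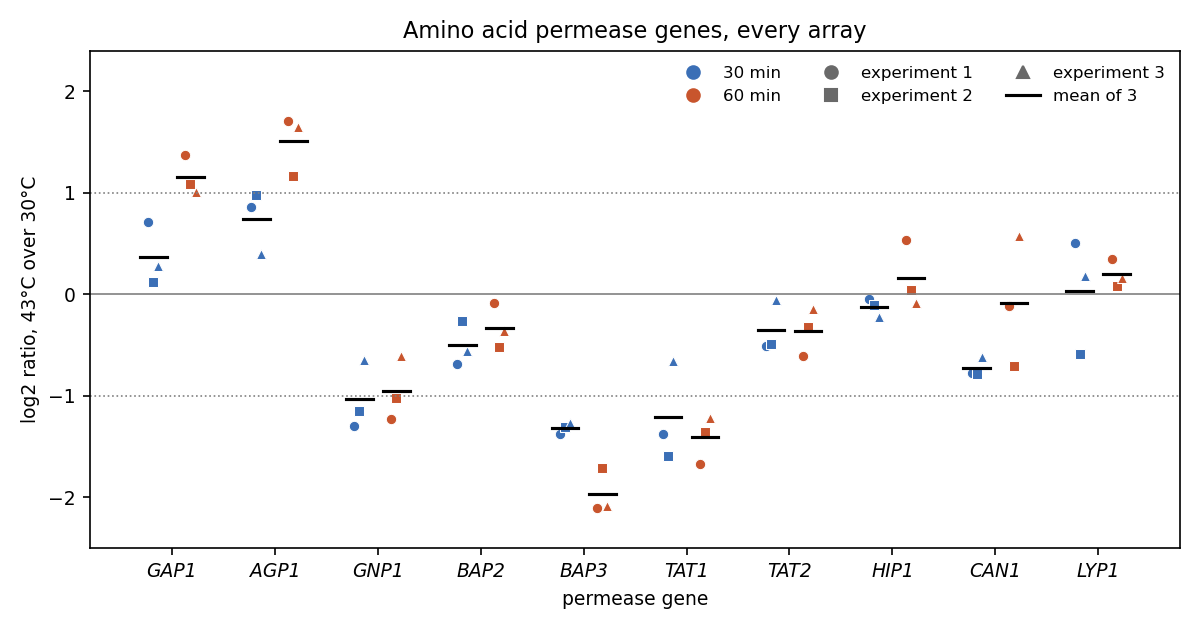
Log2 ratio of 43°C over 30°C (vertical axis) of each of the 10 permease genes (horizontal axis) in every array; blue is 30 min and orange 60 min, symbols mark the 3 experiments, black bars the mean of 3, and dotted lines a change of 2-fold. *AGP1* is the highest of the 10 in all 6 arrays, and *BAP3* lies between -1.27 and -2.11.

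*AGP1* (YCL025C) encodes a permease of low affinity and wide range for neutral amino acids, among them asparagine and glutamine. Its log2 ratios at 30 min were 0.86, 0.98 and 0.40 in experiments 1, 2 and 3. At 60 min they were 1.71, 1.17 and 1.65. All 6 arrays were above 0, and every array of 60 min lay above every array of 30 min. *AGP1* rose at 30 min, with a mean of 0.74 ± 0.31 (SD, n = 3), a ratio of 1.68 and a limma adjusted p of 0.028. With fewer arrays this call was lost while the mean stayed similar. The mean was 0.63 to 0.69 without experiment 1 or 2 of that time (adjusted p = 0.171 and 0.217) and 0.92 without experiment 3 of both times (adjusted p = 0.0684). At 60 min *AGP1* rose with a mean of 1.51 ± 0.30 (SD, n = 3), a ratio of 2.85 and a limma adjusted p of 0.00057, and it was higher than 98.2% of all features. The call at 60 min was kept whichever array was left out. In 1 further probe that carries no gene name the values equalled those of *AGP1* on every array, and the pair was counted as 1 feature.

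*GAP1* (YKR039W), the general amino acid permease, transports nearly all amino acids and is one of the classic genes repressed by good nitrogen sources. Its log2 ratios were 0.71, 0.12 and 0.28 at 30 min. They were 1.37, 1.09 and 1.01 at 60 min. All 3 arrays of 60 min were thus over 2-fold and above all 3 of 30 min, which were above 0 but spread from little change to 0.71. The mean at 30 min was 0.37 ± 0.31 (SD, n = 3), with a 95% confidence interval of -0.09 to 0.83 and a limma adjusted p of 0.207. *GAP1* rose at 60 min, with a mean of 1.16 ± 0.19 (SD, n = 3), a ratio of 2.23 and a limma adjusted p of 0.00223. At that time it was higher than 95.9% of all features.

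Of the permeases under the SPS sensor, *BAP3* had the lowest mean at both times, although at 30 min its range overlapped that of *TAT1*, which was the lower in 2 of 3 arrays. *BAP3* (YDR046C) encodes a permease of branched-chain amino acids, with further neutral amino acids among its substrates. Its log2 ratios were -1.38, -1.31 and -1.27 at 30 min and -2.11, -1.71 and -2.09 at 60 min. Each array was below a ratio of 0.5, and the 60 min arrays were all lower than those of 30 min. The mean was -1.32 ± 0.05 (SD, n = 3) at 30 min, a ratio of 0.4 with a limma adjusted p of 0.000996. At 60 min it was -1.97 ± 0.22 (SD, n = 3), a ratio of 0.255 with a limma adjusted p of 7.41e-05, and only 2.54% of all features were lower. Over the 19 other settings tried, the adjusted p of *BAP3* stayed at or below 0.0198 at 30 min and 0.00352 at 60 min.

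*BAP2* (YBR068C), the other branched-chain permease and a main route of leucine uptake, gave smaller values. Its log2 ratios were -0.69, -0.26 and -0.56 at 30 min and -0.09, -0.52 and -0.36 at 60 min. All 6 arrays were below 0, the arrays of the 2 times overlapped, and none reached a ratio of 0.5. The mean of -0.50 ± 0.22 (SD, n = 3) at 30 min had a limma adjusted p of 0.0904, and that of -0.33 ± 0.22 (SD, n = 3) at 60 min had 0.238. The value at 30 min passed the threshold in 3 of 19 other settings, with an adjusted p of 0.0354 when the arrays of 30 min were fitted alone.

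*TAT1* (YBR069C), which lies next to *BAP2* in the genome, encodes a permease of tyrosine, tryptophan, leucine and valine. Its log2 ratios were -1.38, -1.59 and -0.66 at 30 min and -1.67, -1.36 and -1.22 at 60 min. Only experiment 3 at 30 min stayed above a ratio of 0.5, and the 2 times overlapped. *TAT1* fell at both times, by a mean of -1.21 ± 0.49 (SD, n = 3) at 30 min (ratio 0.432, limma adjusted p = 0.00394) and -1.41 ± 0.23 (SD, n = 3) at 60 min (ratio 0.375, limma adjusted p = 0.00122). Without experiment 2 of 30 min, the mean at that time was -1.02 with an adjusted p of 0.0638. In the reference annotation *TAT1* overlaps the noncoding RNA gene *TBRT*. Whether the spot can bind cDNA of that RNA is not given in the sources used here, and signals of both genes cannot be told apart.

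*TAT2* (YOL020W), the tryptophan permease of high affinity, was low in every array but never by 2-fold. Its log2 ratios were -0.51, -0.49 and -0.06 at 30 min and -0.61, -0.32 and -0.15 at 60 min. Experiment 3 was nearest to 0 at both times, and the ranges of the 2 times overlapped almost fully. The means of -0.35 ± 0.26 (SD, n = 3) and -0.36 ± 0.23 (SD, n = 3) had limma adjusted p-values of 0.225 and 0.2. When each print block, as inferred from the probe numbers, was centred on its median, the value at 60 min was -0.80 with a limma adjusted p of 0.0197. Under this setting *TAT2* passed the threshold.

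*GNP1* (YDR508C) encodes a glutamine permease that also takes up asparagine and other neutral amino acids. Its log2 ratios were -1.30, -1.15 and -0.65 at 30 min and -1.23, -1.02 and -0.61 at 60 min. All 6 arrays were below 0, experiment 3 was the least low at each time, and the times overlapped. *GNP1* fell by a mean of -1.03 ± 0.34 (SD, n = 3) at 30 min (ratio 0.489, limma adjusted p = 0.00703) and -0.95 ± 0.31 (SD, n = 3) at 60 min (ratio 0.517, limma adjusted p = 0.0084). At 30 min the mean was -0.97 to -0.90 without experiment 1 or 2, with adjusted p-values of 0.0831 and 0.0772.

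*HIP1* and *LYP1* stood near 0 at both times. *HIP1* (YGR191W), the histidine permease, had log2 ratios of -0.05, -0.11 and -0.22 at 30 min and 0.53, 0.04 and -0.09 at 60 min. These values lie on both sides of 0, and the times overlap, with experiments 1 and 2 of 60 min above and experiment 3 of 60 min within the range of 30 min. Its means of -0.13 ± 0.09 (SD, n = 3) and 0.16 ± 0.33 (SD, n = 3) had limma adjusted p-values of 0.663 and 0.584. *LYP1* (YNL268W), the lysine permease, had log2 ratios of 0.50, -0.59 and 0.18 at 30 min and 0.35, 0.08 and 0.16 at 60 min. At 30 min the experiments disagreed in sign, while at 60 min all 3 were slightly above 0. The means were 0.03 ± 0.56 (SD, n = 3) and 0.20 ± 0.14 (SD, n = 3), with limma adjusted p-values of 0.936 and 0.55.

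*CAN1* (YEL063C), the arginine permease and the route by which yeast takes up the toxic analog canavanine, had log2 ratios of -0.78, -0.79 and -0.62 at 30 min. At 60 min they were -0.12, -0.71 and 0.57. The arrays of 30 min were even and all below 0, and those of 60 min lay on both sides of 0 and had the widest spread of any member. The mean at 30 min was -0.73 ± 0.10 (SD, n = 3), a ratio of 0.602, and its limma adjusted p of 0.0506 lay just outside the threshold. It passed in 10 of 19 other settings, with adjusted p-values from 0.00385 to 0.226 over all of them. The mean at 60 min was -0.09 ± 0.64 (SD, n = 3), with a limma adjusted p of 0.81.

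In the order of the members within an array, *AGP1* was highest and *GAP1* next in all 6 arrays. *TAT1* was lowest in experiments 1 and 2 of 30 min and *BAP3* in the other 4 arrays. The distance from the highest to the lowest member was 1.67 to 2.57 on the log2 scale at 30 min and 2.88 to 3.83 at 60 min. Of the 10 genes, 7 had 1 sign in all 6 arrays, *GAP1* and *AGP1* above 0 and *BAP2*, *BAP3*, *TAT1*, *TAT2* and *GNP1* below it. When ordered by mean at 30 min, no neighbours in the order were separated beyond their ranges. At 60 min there were 3 gaps, with *GAP1* above *LYP1* by 0.96, *TAT2* above *GNP1* by 0.59 and *TAT1* above *BAP3* by 0.56 among neighbours by mean. The gap below *TAT2* did not separate all genes above it, since *CAN1* at -0.71 in experiment 2 was lower than *GNP1* at -0.61 in experiment 3.

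Between the times, 3 members did not overlap, and in each the 60 min arrays lay farther from 0. *AGP1* was higher at 60 than at 30 min by 0.76 on the log2 scale (95% confidence interval 0.09 to 1.44) and *GAP1* by 0.79 (0.13 to 1.44), while *BAP3* was lower, with a difference of -0.65 (-1.27 to -0.03). None of these differences passed the limma test over all features, with adjusted p-values of 0.532, 0.532 and 0.556 and unadjusted p-values of 0.0305, 0.0225 and 0.0406. Arrays of the 2 times did not overlap in 16.2% of all features, and 0.0% of features passed the limma test of the difference, although 516 had an unadjusted p under 0.05. *CAN1* differed by 0.64 (-0.13 to 1.42, limma adjusted p = 0.614) and *HIP1* by 0.29 (adjusted p = 0.786). No single permease was thus shown to differ between the times.

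**Figure D2:**
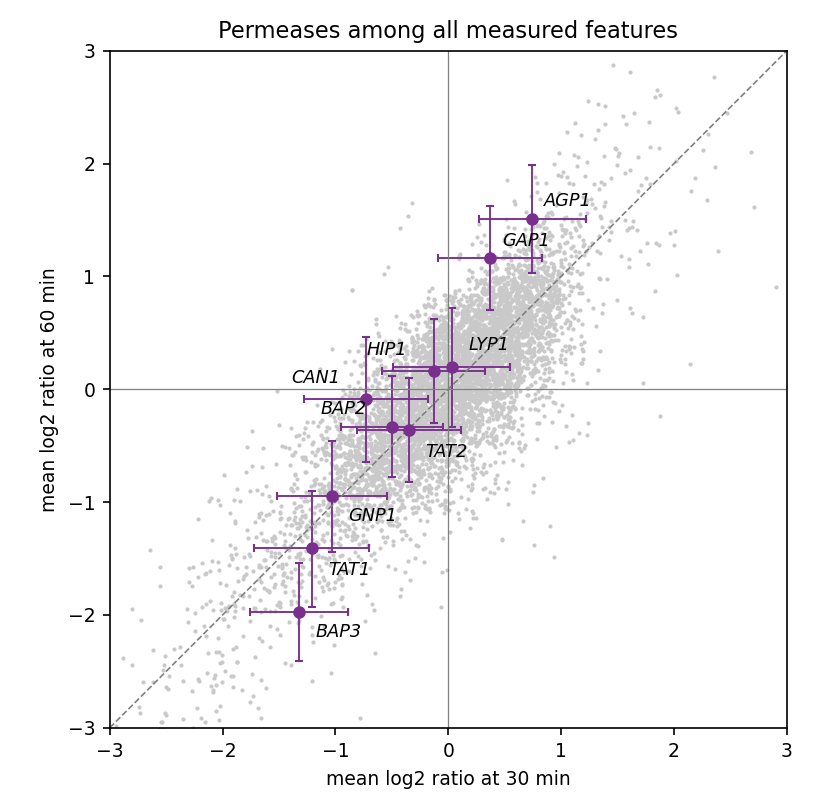
Mean log2 ratio at 30 min (horizontal axis) and at 60 min (vertical axis), each over 3 arrays, of the 10 permeases (purple, with 95% confidence intervals of the limma fit) among all measured features (grey; 58 with a mean beyond 3 are not drawn); the dashed line marks equal values. *AGP1* and *GAP1* lie above the dashed line at 60 min means of 1.51 and 1.16, *BAP3* below it at -1.97, and the confidence intervals of *HIP1* and *LYP1* cross 0 on both axes.

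Related permeases were compared within each array, where the difference of their log2 ratios is a single value per array. The 6 pairs share substrates or regulation, and since they were chosen with the members' values known, their differences are given as a description, with no test. *AGP1* and *GNP1*, both routes for glutamine and asparagine and both targets of the SPS sensor, lay on opposite sides of 0 in every array. *AGP1* exceeded *GNP1* by 2.16, 2.13 and 1.04 at 30 min and by 2.94, 2.18 and 2.26 at 60 min. The mean difference was 2.12 ± 0.61 (SD over 6 arrays), in the same direction in 6 of 6 arrays. *BAP2* exceeded its relative *BAP3* by 0.69, 1.05 and 0.72 at 30 min and by 2.02, 1.19 and 1.72 at 60 min, with a mean of 1.23 ± 0.54.

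Of the neighbours *BAP2* and *TAT1*, *TAT1* was the lower in every array. *TAT1* minus *BAP2* was -0.69, -1.33 and -0.11 at 30 min and -1.57, -0.83 and -0.86 at 60 min, a mean of -0.90 ± 0.51, so that experiment 3 of 30 min was the only array in which they were nearly equal. Among the tryptophan permeases, *TAT2* exceeded *TAT1* by 0.60 to 1.10, with a mean of 0.96 ± 0.19, the most even of the 6 pairs. Both pairs had 1 direction in 6 of 6 arrays. For the basic amino acids, *CAN1* minus *LYP1* was -0.52 ± 0.58 over 6 arrays, from -1.29 to 0.41. *ALP1*, a gene closely related to *CAN1* and added here after its values were seen, exceeded *LYP1* by 0.66 ± 0.51, from -0.08 to 1.30. A dye bias would enter these differences as it enters the ratios.

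**Figure D3:**
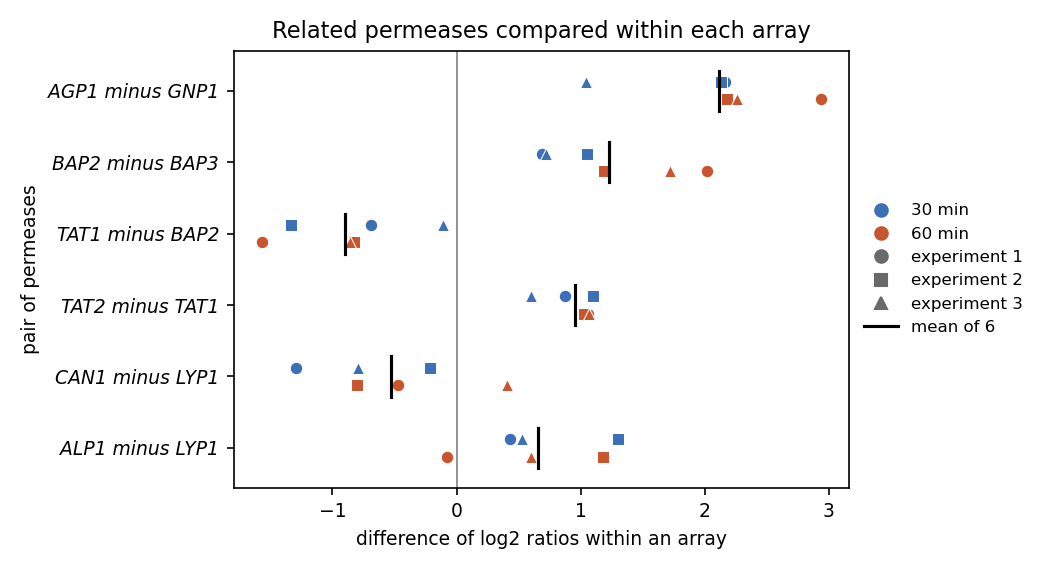
Difference of the log2 ratios of 2 related permeases within an array (horizontal axis) for 6 pairs (vertical axis); blue is 30 min and orange 60 min, symbols mark the experiments, and black bars the mean of 6 arrays. All 6 arrays lie on 1 side of 0 in the upper 4 pairs, with means of 2.12, 1.23, -0.90 and 0.96, and on both sides in the lower 2.

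The other amino acid permeases and related transporters of the plasma membrane were set beside the members. Of 11 measured, 5 rose and 0 fell at 30 min, and 5 rose and 1 fell at 60 min, with median log2 ratios of 0.57 and 0.58, on the other side of 0 from the medians of the 10 members. Calls in either direction were 45.5% and 54.5% of the list, beside 26.7% and 33.8% of all features. The gene that fell was *PTR2*, the di- and tripeptide transporter that shares the SPS sensor with *BAP3* and *TAT1*, at -1.30 ± 0.33 (SD, n = 3, limma adjusted p = 0.0053) at 60 min and -0.81 ± 0.73 (adjusted p = 0.0508) at 30 min. The 5 genes that rose at 60 min were *PUT4*, the proline permease, at 1.06 ± 0.23, *MUP3*, a methionine permease of low affinity, at 1.05 ± 0.30, *UGA4*, the permease of gamma-aminobutyrate, at 1.02 ± 0.23, and *ALP1* and *AGP3*, at 0.76 ± 0.50 and 0.58 ± 0.08. At 30 min *MUP3* did not pass (0.69 ± 0.56, limma adjusted p = 0.0612). In its place *DIP5* rose at that time (0.90 ± 0.42, limma adjusted p = 0.0195), and it was at -0.02 ± 0.43 at 60 min.

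The genes of the SPS sensor and its regulators had calls in both directions. Of 13 measured, 1 rose and 1 fell at 30 min, and 3 rose and 2 fell at 60 min, with medians of -0.07 and 0.28. In either direction these are 15.4% and 38.5% of the list, beside 26.7% and 33.8% of all features. *SSY1*, the sensor protein, was at 0.24 ± 0.02 (SD, n = 3) at 30 min (limma adjusted p = 0.404) and rose to 0.97 ± 0.36 at 60 min (adjusted p = 0.00596, or 0.0658 with centred print blocks). *PTR3*, which acts with *SSY1* in the sensor, was at 0.69 ± 0.04 at 30 min (limma adjusted p = 0.0761) and rose to 0.82 ± 0.75 at 60 min (adjusted p = 0.0369), with values of 1.65, 0.18 and 0.63. *STP1* was at 0.14 ± 0.22 and 0.28 ± 0.11 and *STP2* at 0.16 ± 0.43 and 0.66 ± 0.50, and neither passed. *YCK1*, a casein kinase that acts in this pathway, fell at both times, by -1.28 ± 0.06 and -0.99 ± 0.27. *ASI3*, another regulator, was at -0.55 ± 0.21 at 30 min (limma adjusted p = 0.0663). It fell by -0.93 ± 0.20 at 60 min (limma adjusted p = 0.00629, or 0.29 with centred print blocks). *STP4* rose at 30 min (0.77 ± 0.35, limma adjusted p = 0.0379) and did not pass at 60 min (0.52 ± 0.49, adjusted p = 0.119).

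Of 13 measured genes of nitrogen catabolite repression other than *GAP1*, 4 rose and 1 fell at 30 min, and 6 rose and 1 fell at 60 min, with medians of 0.35 and 0.52. That is 38.5% and 53.8% of the list, beside 26.7% and 33.8% of all features. *PUT1*, proline oxidase, rose at both times (2.01 ± 0.70 and 1.41 ± 0.69), as did *GLN1*, glutamine synthetase (1.61 ± 0.35 and 0.72 ± 0.42). *MEP3* also rose at 30 min (0.97 ± 0.31, limma adjusted p = 0.0106) and at 60 min (0.65 ± 0.39, limma adjusted p = 0.048). With centred print blocks its 30 min mean was 0.47 (limma adjusted p = 0.0554). Its 60 min call was kept in only 10 of 19 other settings, and median centring gave a limma adjusted p of 0.0531. *DAL80*, a GATA repressor whose own gene is a target of this control, rose at 60 min with *GAP1* (1.42 ± 0.88, limma adjusted p = 0.00709) and was at 0.74 ± 0.53 at 30 min (adjusted p = 0.109). The activators *GLN3* (0.73 ± 0.17 and 0.46 ± 1.02) and *GAT1* (-0.21 ± 0.20 and 0.07 ± 0.84) did not pass at either time. The gene that fell at 30 min was *CAR1* (-0.79 ± 0.48, limma adjusted p = 0.0413). At 60 min it was *PUT2* (-0.60 ± 0.37, limma adjusted p = 0.0489). *MEP1* (-0.14 ± 0.24 and -0.37 ± 0.64) and *MEP2* (0.30 ± 0.15 and 0.52 ± 0.25) did not pass at either time.

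Most called genes of permease delivery to the membrane were lower. Of 9 measured, 0 rose and 4 fell at 30 min, and 2 rose and 6 fell at 60 min, with medians of -0.57 and -0.89. Counted in either direction, 44.4% and 88.9% of the list were called, beside 26.7% and 33.8% of all features. *SHR3*, the endoplasmic reticulum chaperone on which the permeases of this family depend, had log2 ratios of -2.32, -1.45 and -0.95 at 30 min and -1.46, -1.04 and -0.47 at 60 min. It fell by a mean of -1.57 ± 0.69 (limma adjusted p = 0.00295) and -0.99 ± 0.50 (adjusted p = 0.0217, or 0.0751 to 0.0862 without experiment 1 or 2 of 60 min). *LST4* (-1.06 ± 0.38 and -1.19 ± 0.25), which acts in the sorting of Gap1 to the cell surface, and the coat protein gene *SEC13* (-1.05 ± 0.24 and -0.89 ± 0.12) fell at both times, and so did *KOG1* of TORC1 (-0.86 ± 0.12 and -0.71 ± 0.10). With centred print blocks *KOG1* at 60 min had a limma adjusted p of 0.0542. *NPR1*, the kinase that keeps Gap1 at the membrane, was at 0.37 ± 0.16 and 0.52 ± 0.97 and did not pass. The 2 genes that rose at 60 min were *LST7* (0.75 ± 0.29, limma adjusted p = 0.0254) and *PAR32* (0.66 ± 0.22, limma adjusted p = 0.031). At 30 min they were at 0.26 ± 0.38 and 0.34 ± 0.24 and did not pass.

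Of 19 genes of permease ubiquitination and sorting, 2 rose and 1 fell at 30 min, and 3 rose and 2 fell at 60 min, with medians of -0.16 and 0.01. The calls were 15.8% and 26.3% of the list, fewer than the 26.7% and 33.8% of all features. *RSP5*, the ubiquitin ligase of permeases, fell at both times (-1.36 ± 0.47, limma adjusted p = 0.00275, and -1.09 ± 0.40, adjusted p = 0.00707). Of the adaptors that recruit it, *CSR2* (1.39 ± 0.17 and 1.66 ± 0.39) and *ECM21* (1.16 ± 0.07 and 1.22 ± 0.38) rose at both times. *BUL1*, *BUL2*, *ALY1*, *ALY2*, *LDB19*, *ROD1*, *ROG3* and *ART10* did not pass at either time, and *ART5* fell at 60 min (-0.56 ± 0.05, limma adjusted p = 0.0445). The sorting gene *VPS27* was at 0.32 ± 0.14 at 30 min (limma adjusted p = 0.242). It rose at 60 min (0.84 ± 0.08, limma adjusted p = 0.00795).

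The vacuolar transporters had calls in both directions, 2 up and 3 down of 13 at each time, with medians of 0.05 and -0.25. At each time 38.5% of this list was called, beside 26.7% of all features at 30 min and 33.8% at 60 min. *AVT1* (-1.54 ± 0.26 and -1.73 ± 0.20), *YPQ1* (-1.70 ± 0.11 and -1.31 ± 0.42) and *VBA1* (-1.05 ± 0.23 and -0.74 ± 0.60) fell at both times. *RTC2* (0.79 ± 0.23 and 0.97 ± 0.32) and *VBA3* (0.68 ± 0.07 and 0.57 ± 0.14) rose at both times. A list of 9 genes was drawn up for the breakdown of aromatic and branched-chain amino acids, the substrates of *BAP2*, *BAP3*, *TAT1* and *TAT2*. The aminotransferases of *BAT1* and *ARO8* act in the synthesis of these amino acids as well, so the list does not stand for breakdown alone. In it 0 genes rose and 4 fell at 30 min, and 0 rose and 6 fell at 60 min, with medians of -0.76 and -1.73. The calls were 44.4% and 66.7% of the list, beside 26.7% and 33.8% of all features. The aminotransferase genes *BAT1* (-2.55 ± 0.39 and -1.75 ± 0.46), *ARO8* (-1.63 ± 0.33 and -1.95 ± 0.36) and *ARO9* (-1.72 ± 0.51 and -1.94 ± 0.09), with the decarboxylase gene *ARO10* (-2.09 ± 0.56 and -1.96 ± 0.88), fell at both times. *BAT2*, the other branched-chain aminotransferase gene, did not pass at 30 min (-0.76 ± 0.44, limma adjusted p = 0.0727). It fell at 60 min (-1.73 ± 0.76, limma adjusted p = 0.00138). Every list's count reads against the shares of all features given above.

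**Figure D4:**
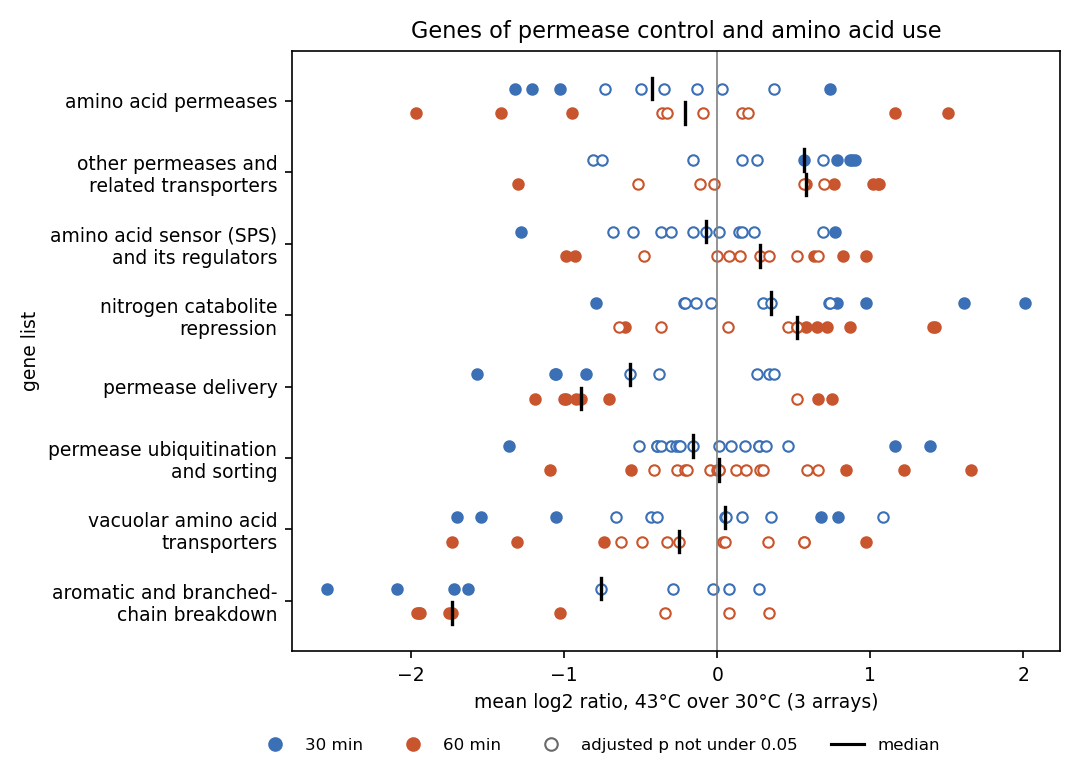
Mean log2 ratio over 3 arrays (horizontal axis) of every measured gene of 8 gene lists (vertical axis); blue is 30 min, orange 60 min, filled points passed the limma test and open points did not, and black bars mark the list's median. The 10 permeases span -1.97 to 1.51 at 60 min, and the list drawn up for breakdown has the lowest medians, -0.76 and -1.73.

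Among the other genes named by the rule given below, leaving out 1 array ended 9 calls at 30 min (*PUT4*, *UGA4*, *STP4*, *MEP3*, *LST4*, *SEC13*, *KOG1*, *VBA1* and *RTC2*, with limma adjusted p-values of 0.0506 to 0.287) and 6 at 60 min (*PTR3*, *GLN1*, *MEP3*, *SHR3*, *KOG1* and *VBA1*, with 0.0545 to 0.205). Without experiment 3 of both times, the 60 min calls of *YCK1*, *PTR2*, *SEC13* and *VPS27* were lost as well (limma adjusted p = 0.056, 0.0572, 0.056 and 0.05), and with array weights that of *SHR3* (0.0957). Among the permeases themselves, leaving out 1 array ended only the 30 min calls of *AGP1*, *TAT1* and *GNP1* given above, and none at 60 min. The ratios hold no level, so it cannot be said from them which permease mRNA was most abundant. Arrays of 60 min resembled each other less (lowest correlation across features with another array of the same time 0.598 to 0.666) than those of 30 min (0.774 to 0.82), and experiment 3 had the narrowest spread of ratios at each time, with median absolute deviations of 0.564 and 0.607 against 0.757 to 1.04 in the other arrays. Experiment 3 was also the least low for *GNP1*, *TAT1* and *TAT2* at both times, and the part of the narrow spread in this was not tested.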

How the data were processed

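Heat-shocked and control RNA of *S. cerevisiae* JN54 was compared on 2-colour cDNA microarrays, 3 experiments at each of 30 and 60 min. Poly(A) RNA was used, and the arrays were scanned at high and low laser power. The authors quantified spots with GenePix and computed Cy5/Cy3 with Chip Cleanser. The deposited values, log ratios of a base not given in the sources used here, were read as log2 ratios, which the authors normalized on negative control spots, and their direction follows from the dyes and heat shock genes. Over 2-fold at 30 min were 266 features up and 613 down with log2, 844 and 1022 with natural logarithms, and 1971 and 1979 with log10. Of these, log2 came nearest to the gene counts stated for the same rule, a choice made with the values in view. Tests and signs do not depend on the base, but every fold and 2-fold count does. The scans of an array differed in 0 values, so each array was counted once. Precision depends on how many arrays there were and on each gene's spread between them, and no intensities were used.

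Of 6912 probes, 6162 had values. Gene names came from the platform's annotation (5446 probes with 1 symbol, 0 with several and 1466 with none). Probes with identical values on every array (203 in 78 groups) were counted once and distinct probes of a gene averaged, which left 6019 features. Mean log2 ratios were tested with limma 3.58.1 in R 4.3.3, in 1 linear model of both times with moderated variances (6.76 prior and 4 residual degrees of freedom), two-sided, with Benjamini-Hochberg adjustment at 0.05 over all features, after a check on simulated data. Confidence intervals come from this fit, while each SD is that of its own 3 arrays. The study's methods call the experiments independent. The sources used here do not say whether each had its own culture, and p-values measure the spread between these arrays.

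The members, lists and pairs were chosen with earlier results of these data known. All 10 members were named with every array, and of each other list up to 4 genes that passed at either time with the largest mean over both times, plus *SSY1*, *STP1*, *STP2*, *SHR3*, *GLN3*, *GAT1* and *NPR1* whatever their values. *ALP1*, *AGP3*, *DIP5*, *VBA3*, *BAT2* and the adaptors other than *CSR2* and *ECM21* are outside this rule and were named after their values were seen. The same holds for *LST7*, *PAR32*, *CAR1*, *PUT2*, *MEP1* and *MEP2*. *DAL81*, *URE2* and *TOR1* were not analysed here, nor were protein and promoter sequences. The alternatives were median centring, scaling to 1 median absolute deviation, each scan alone, complete features only, no minimum of values per feature and identical probes kept apart. Further ones were array weights, each time fitted alone, a robust moderation, a replicate block by experiment number, and each array or experiment 3 of both times left out. Print-block centring (192 blocks) and natural logarithms were added after the data were seen. The blocks were inferred from the leading digits of the probe numbers, and no print layout of the array was used. Deviations of arrays with the same experiment number correlated by -0.0425, 0.125 and 0.353, and with 1 value under 0.1 the arrays were treated as unpaired.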

Additional observations from a re-analysis of the deposited data

How the results depend on the processing

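The 60 min calls of *GAP1*, *AGP1*, *BAP3*, *TAT1* and *GNP1*, and the 30 min call of *BAP3*, were kept in all 19 alternatives. Of 560 values of single members under an alternative, 522 kept direction and side of the threshold, 14 passed it newly, 6 no longer passed and 18 turned sign, none of them a call. The counts of 19 and 560, here and above, include settings that could not change a result. These are each scan alone, since the scans differed in 0 values, and no minimum of values, since the minimum removed 0 features. At 30 min 4 members passed, against 1 to 5 with 1 array left out. Members over 2-fold at 30 min numbered 3, but 1 when all 3 experiments were required, 5 with scaled arrays, 5 with natural logarithms (where a smaller value is 2-fold) and 1 to 3 with an array left out, which then requires both remaining arrays. With the experiment number as a replicate block 5 members passed at 30 min (*CAN1* was added, limma adjusted p = 0.0304), 5 at 60 min and 0 for the difference, and no other member's call changed.

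The sign turns were these, with ranges over the fits that left out an array. The difference between the times ranged from -0.39 to 0.07 for *TAT1*, -0.09 to 0.27 for *GNP1*, -0.14 to 0.40 for *LYP1* and -0.11 to 0.14 for *TAT2*, which was also 0.03 with scaled arrays and 0.12 with array weights. *CAN1* at 60 min was 0.02 with scaled arrays, 0.17 with array weights, 0.11 with print-block centring and -0.42 to 0.22 with an array left out. *HIP1* at 60 min ranged from -0.03 to 0.28, and *LYP1* at 30 min from -0.20 to 0.34, with -0.10 under array weights and -0.04 without experiment 3 of both times. *GAT1* at 60 min was -0.01 with array weights, -0.02 with print-block centring and -0.37 to 0.46 with an array left out, *GLN3* at 60 min ranged from -0.02 to 1.0, and *STP2* at 30 min from -0.02 to 0.40. The cause of these shifts was not tested. With 3 arrays a time and 1 dye orientation, small changes of single permeases may not be detectable.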
